A study of Drosophila melanogaster with 8 samples.

Results

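The scaffold that the array files name 3h holds sequence from the heterochromatin of chromosome 3, and all of its probes lay on 1 of the 2 tiling array designs of the study. Every genomic probe whose listed position was on 3h was taken as a member, whatever its signal, which gave 3214 of 475395 genomic probes, or 0.676%. The outlier flags of the scanner software removed 2 of them, and 3212 were used. H3K36me3 was measured by ChIP-chip in whole embryos collected 2 to 4 hr after egg laying, in 2 *dkdm4a* mutant samples and 2 wild type samples that the labels call biological replicates. Embryos were pooled from population cages. The mutant line has a y1 w67c23 background and carries the P-element SUPor-P, with its markers y+mDint2 and wBR.E.BR, in *dkdm4a* (allele Kdm4AKG04636), and the line called wild type was made from that stock by excising the P-element. Immunoprecipitated (IP) DNA was read in Cy5 and input DNA in Cy3 on every array, both after amplification by ligation-mediated PCR and without a dye swap. The level of a probe was taken as log2 IP/input minus the median of its array, so a level above 0 stands above the middle of the array, and a change shared by all sequences would not be seen.

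Trimethylation of lysine 36 on histone H3 is placed on nucleosomes behind elongating RNA polymerase II and marks the bodies of transcribed genes, with a rise towards their ends. Pericentric heterochromatin is rich in repeats, carries H3K9 methylation and is bound by HP1a, and the genes that lie within it are transcribed in spite of this surrounding. dKDM4A is a JmjC-domain demethylase that removes methyl groups from H3K36 and binds HP1a. The comparison asked where H3K36me3 changed when this enzyme was absent, and 3h is a heterochromatic stretch in which to look.

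The 3h probes lay between positions 269128 and 2929912, a span of 2660.78 kb, with a median spacing of 164 bp against 220 bp for the euchromatic probes of the same arrays. The cover was uneven. There were 361 gaps of more than 1 kb between neighbouring probes and 121 gaps of more than 5 kb, the longest of them 121.667 kb. Probes were 45 to 60 nt long, and 77.9% of them had 60 nt. The files name no genome build, so positions are given as listed, no gene was placed on 3h and no sequence is shown. The genotype was not checked on the arrays themselves, because the *dkdm4a* gene was not placed either.

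The signal on 3h was measured above background for most probes. The median brightness of a 3h probe in the input channel was 854 and 539 units in the 2 mutant samples, against 849 and 506 units in the wild type samples. In the IP channel it was 216 and 168 units in the mutant, against 183 and 126 units in wild type. Replicate 2 was thus dimmer in both genotypes and both channels. Input signals were well above background at 96.5% to 99.5% of the 3h probes and IP signals at 86.0% to 94.6%, and no 3h spot was saturated. The samples with the same replicate number shared a scan day, which differed between the numbers, and differences are therefore given within each replicate as well as between the groups.

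H3K36me3 on 3h was of middle height and widely spread over the scaffold in wild type embryos. The median 3h probe stood at 0.54 and 0.68 on the log2 scale in wild type replicates 1 and 2, against -0.03 and -0.04 for the euchromatic probes of the same arrays. A value above 0 was found for 76.0% and 83.5% of the 3h probes, against 48.9% and 48.7% of the euchromatic ones. Strongly enriched probes were nevertheless fewer on 3h. The upper quartile of 3h was 1.24 and 1.49, against 1.24 and 1.61 in euchromatin, and the SD over probes was 1.14 and 1.24 on 3h, against 2.00 and 2.21 in euchromatin. The means therefore lay close together. The wild type mean of 3h exceeded that of euchromatin by only 0.064 and 0.134 (0.099 ± 0.049, SD, n = 2), and after another background correction (normexp) the same mean difference was -0.062. The 3h scaffold carried less H3K36me3 than 2h, the heterochromatic scaffold on the same arrays assigned to chromosome 2, with 3h minus 2h at -0.74 and -0.83 in wild type.

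The 3h distribution lay higher in the mutant than in wild type within both replicates. Its mean level was 1.00 and 1.35 in mutant replicates 1 and 2, against 0.77 and 1.01 in wild type replicates 1 and 2. The mutant exceeded wild type by 0.23 and 0.34 within the replicates (mean 0.29 ± 0.08, SD, n = 2 replicates), but mutant replicate 1 lay just below wild type replicate 2, and the groups overlapped by that margin (exact permutation test over the 4 samples, two-sided, p = 0.667, with exchange within replicates p = 0.5). The design allows no p below 0.33 over the 4 samples and none below 0.5 within replicates, so no comparison of sample means here could pass 0.05. Medians did not overlap, with 0.79 and 1.08 in the mutant against 0.54 and 0.68 in wild type (exact permutation test, two-sided, p = 0.33). The share of 3h probes above 0 was 85.6% and 90.8% in the mutant, against 76.0% and 83.5% in wild type, and again the groups did not overlap.

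**Figure D1:**
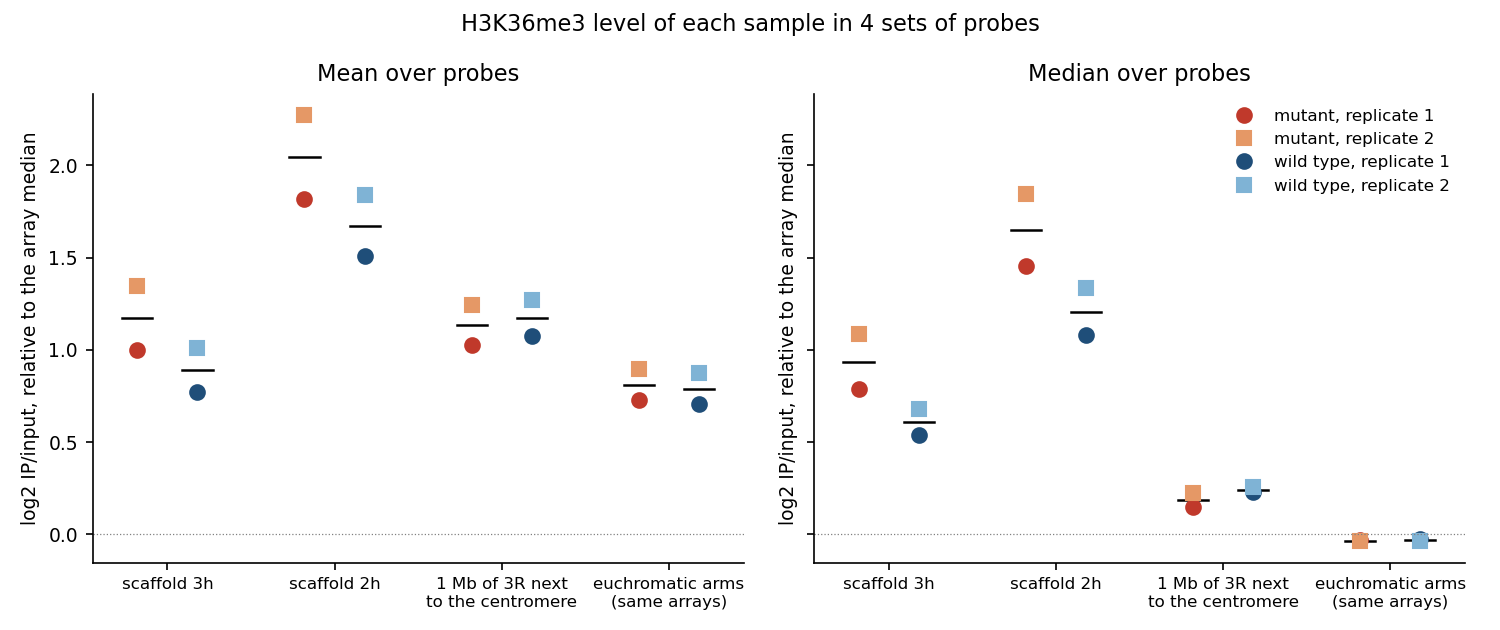
Mean (left) and median (right) log2 IP/input over the probes of 4 sequence sets, relative to the array median, with 1 point per sample (circles replicate 1, squares replicate 2) and a bar at the mean of each genotype. The mutant samples of scaffold 3h, at means of 1.00 and 1.35, each lie above the wild type sample of the same replicate, at 0.77 and 1.01, while both genotypes lie together in euchromatin.

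The euchromatic part of the arrays showed no difference of this size. Euchromatic probes of the same arrays differed between the genotypes by 0.02 in both replicates. Once the euchromatic mean of each array was subtracted, 3h stood at 0.27 and 0.45 in the mutant, against 0.06 and 0.13 in wild type, and both mutant samples lay above both wild type samples (difference 0.21 and 0.32 within the replicates, exact permutation test, two-sided, p = 0.33). No such shift was seen in the 1 Mb of 3R that lies next to the centromere, which is assembled as part of the arm and carried on the same arrays. It had means of 1.03 and 1.24 in the mutant against 1.07 and 1.27 in wild type, a difference of -0.04 and -0.03. The level of 3h relative to this stretch was -0.03 and 0.11 in the mutant, against -0.30 and -0.26 in wild type, so that the difference of differences was 0.28 and 0.37 in replicates 1 and 2 (exact permutation test, two-sided, p = 0.33).

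The other scaffold on these arrays differed in the same direction. On 2h the mutant exceeded wild type by 0.31 and 0.43 within the replicates. The difference on 3h was thus smaller than that on 2h by 0.08 and 0.09, a difference with the same sign in both replicates but with overlapping samples, since 3h minus 2h was -0.82 and -0.93 in the mutant against -0.74 and -0.83 in wild type (exact permutation test, two-sided, p = 0.667).

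The difference between the genotypes lay in the IP channel. Relative to the array median, mean log2 IP signal on 3h was 0.70 and 0.63 in the mutant, against 0.52 and 0.33 in wild type, without overlap. Mean log2 input was -0.41 and -0.84 in the mutant, against -0.40 and -0.82 in wild type, and so it followed the replicate and hardly the genotype, with differences of -0.015 and -0.013. The shift was seen at every brightness of the input, though it was smaller at dim probes. In the lowest quartile of 3h probes by input it was 0.11 and 0.26 in replicates 1 and 2, and in the highest quartile 0.33 and 0.44. Whether input brightness has a part in the size of the shift was not tested.

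The difference was larger at probes of low and middle wild type level than at the most enriched ones. To keep the level and the difference apart, the probes were binned by the wild type level of one replicate and the difference was taken from the other. Where the wild type level was below 0, the mutant exceeded wild type by 0.21 in replicate 1 and 0.30 in replicate 2. Between 0 and 1 it did so by 0.30 and 0.38, and between 1 and 2 by 0.23 and 0.37. At a wild type level of 2 or more, where 537 and 433 probes were left, the difference was 0.05 and 0.23. In both replicates the bin between 0 and 1 was the highest, nearly equalled by the next bin in replicate 2, and the top bin was close to no change in replicate 1 only. The top bin was the lowest on 2h as well. There the differences from the lowest to the highest bin were 0.37, 0.37, 0.40 and 0.19 in replicate 1. In replicate 2 they were 0.35, 0.48, 0.56 and 0.33. In the euchromatic probes of the same arrays no bin differed by more than 0.06 in either replicate.

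**Figure D2:**
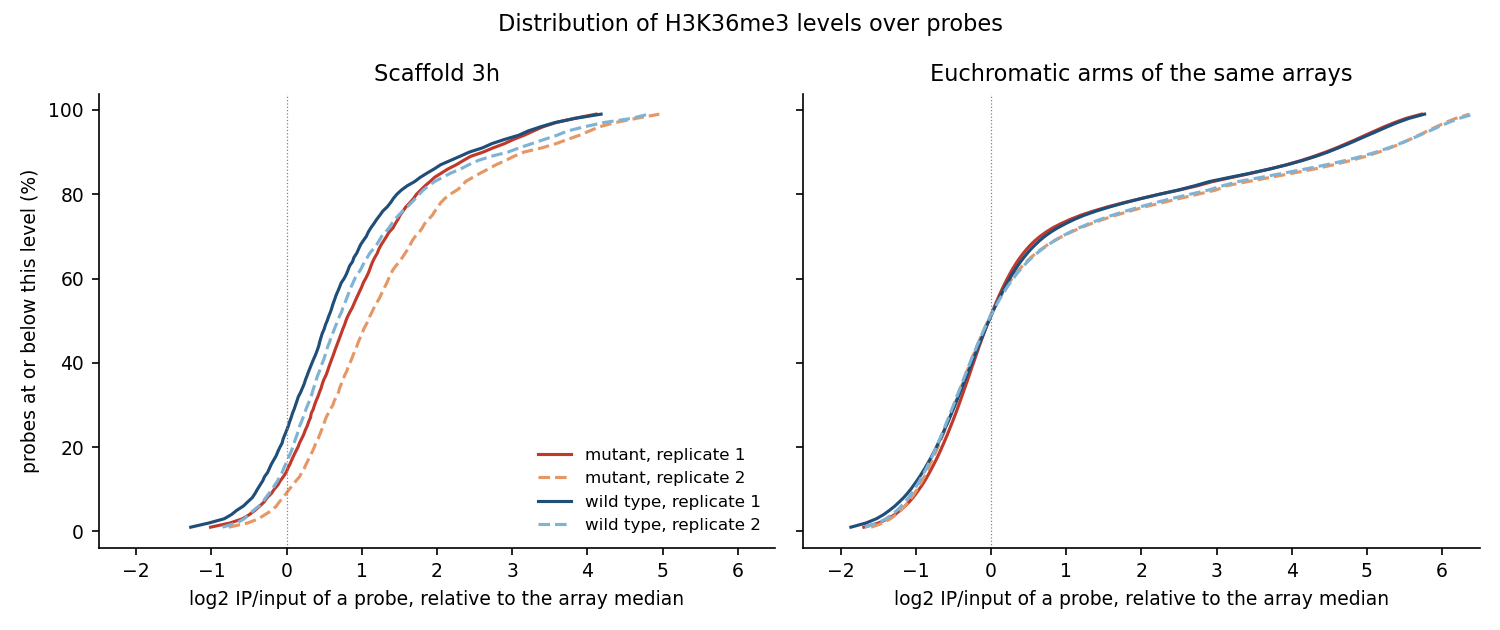
Percent of probes (vertical axis) at or below each level of log2 IP/input relative to the array median (horizontal axis), for scaffold 3h (left) and for the euchromatic arms on the same arrays (right), with 1 curve per sample. On 3h each mutant curve runs to the right of the wild type curve of the same replicate up to the most enriched probes, and the medians are 0.79 and 1.08 in the mutant against 0.54 and 0.68 in wild type. In euchromatin the genotypes nearly coincide.

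The difference was spread along the scaffold. In all 26 segments of 100 kb that held probes, the mutant exceeded wild type in both replicates, by means of 0.07 to 0.62. In 11 of them both mutant samples lay above both wild type samples. Segments were described on 3h only, so no share over other sequence stands beside these counts. The difference was larger in replicate 2 in 25 of the 26 segments. The highest values were found in the segment between 879222 and 969110 and in the one between 1480635 and 1554803. In the first of these the level was 0.96 and 1.30 in the mutant, against 0.44 and 0.59 in wild type. In the second it was 0.86 and 1.25 in the mutant, against 0.29 and 0.59 in wild type. Both segments are of low to middle level in wild type, and the genotypes did not overlap in either. The 3 neighbouring segments from 469357 to 769082 differed least as a group, with differences of 0.07, 0.14 and 0.11. Across the 26 segments the difference of replicate 1 followed that of replicate 2, with 0.885 for Pearson's r and 0.867 for Spearman's rho. Segments of 1 sample share its arrays and are not independent, and these correlations describe the profile only. The spread of the mean difference over segments (SD 0.16) was larger than the median disagreement between the replicates in a segment (0.11).

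**Figure D3:**
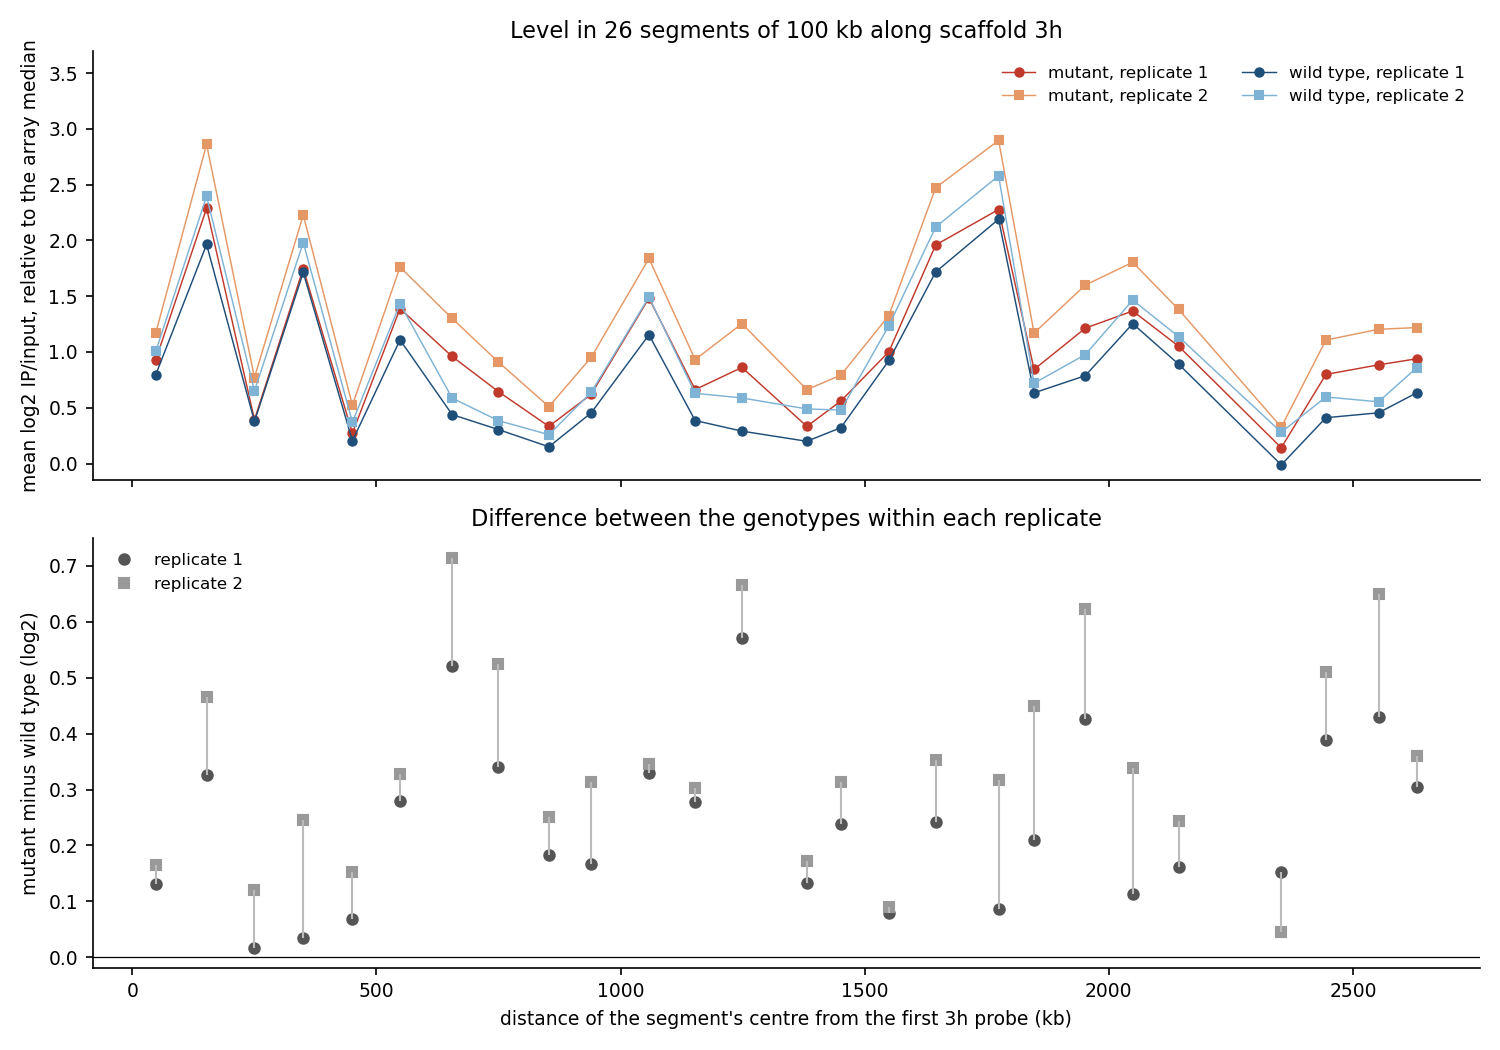
Top, mean log2 IP/input relative to the array median in 26 segments of 100 kb, by the distance of the segment's centre from the first 3h probe (kb), for each sample. Bottom, mutant minus wild type of each segment in replicate 1 (circles) and replicate 2 (squares), joined by a line. All differences lie above 0, and the segment means reach from 0.07 to 0.62.

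Since probes on 3h come in clusters, the scaffold was also divided at every gap of more than 5 kb. This gave 122 blocks, of which 55 held at least 20 probes and together 87.8% of the 3h probes. The mutant was higher in both replicates in 46 of these blocks, lower in both in 1 and mixed in 8. Its samples lay above those of wild type without overlap in 26 blocks and below in none. Blocks were formed on 3h only, so no share over other sequence stands beside these counts. In windows of 2 kb, a smaller unit described below, 15.9% of all lay above without overlap and 11.7% below. The block between 2241670 and 2250859 differed most. Its level was 1.54 and 2.01 in the mutant, against 0.33 and 0.63 in wild type, a difference of 1.21 and 1.38 over 20 probes. The block between 2704373 and 2721784 followed with 1.25 and 1.71 in the mutant, against 0.45 and 0.86 in wild type. In both the wild type level was modest and the genotypes did not overlap. Blocks of high wild type level had a higher mean in the mutant as well. In the 13 blocks with a wild type level above 1.5 the difference was 0.03 to 0.50, with a median of 0.27. In the 23 blocks below 0.5 it was -0.03 to 1.30, with a median of 0.32. The wild type level is part of this difference, so these ranges are descriptions only. With the level taken from the other replicate, its correlation with the difference over the 55 blocks was -0.13 for replicate 1 and -0.07 for replicate 2. The block between 373255 and 419681 had 2.12 and 2.60 in the mutant, against 1.67 and 2.04 in wild type, without overlap, while that between 442360 and 474631 had 2.44 and 3.13 in the mutant, against 2.26 and 2.77 in wild type, with overlap.

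A few blocks did not share the difference. The block between 488438 and 501131 was the 1 block lower in both replicates, with 0.37 and 0.86 in the mutant against 0.69 and 0.91 in wild type. The groups overlapped. In the block between 520898 and 537728, at -0.13 and 0.04 in the mutant against -0.14 and 0.11 in wild type, the replicates differed more than the genotypes, and all samples were near the middle of their array.

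**Figure D4:**
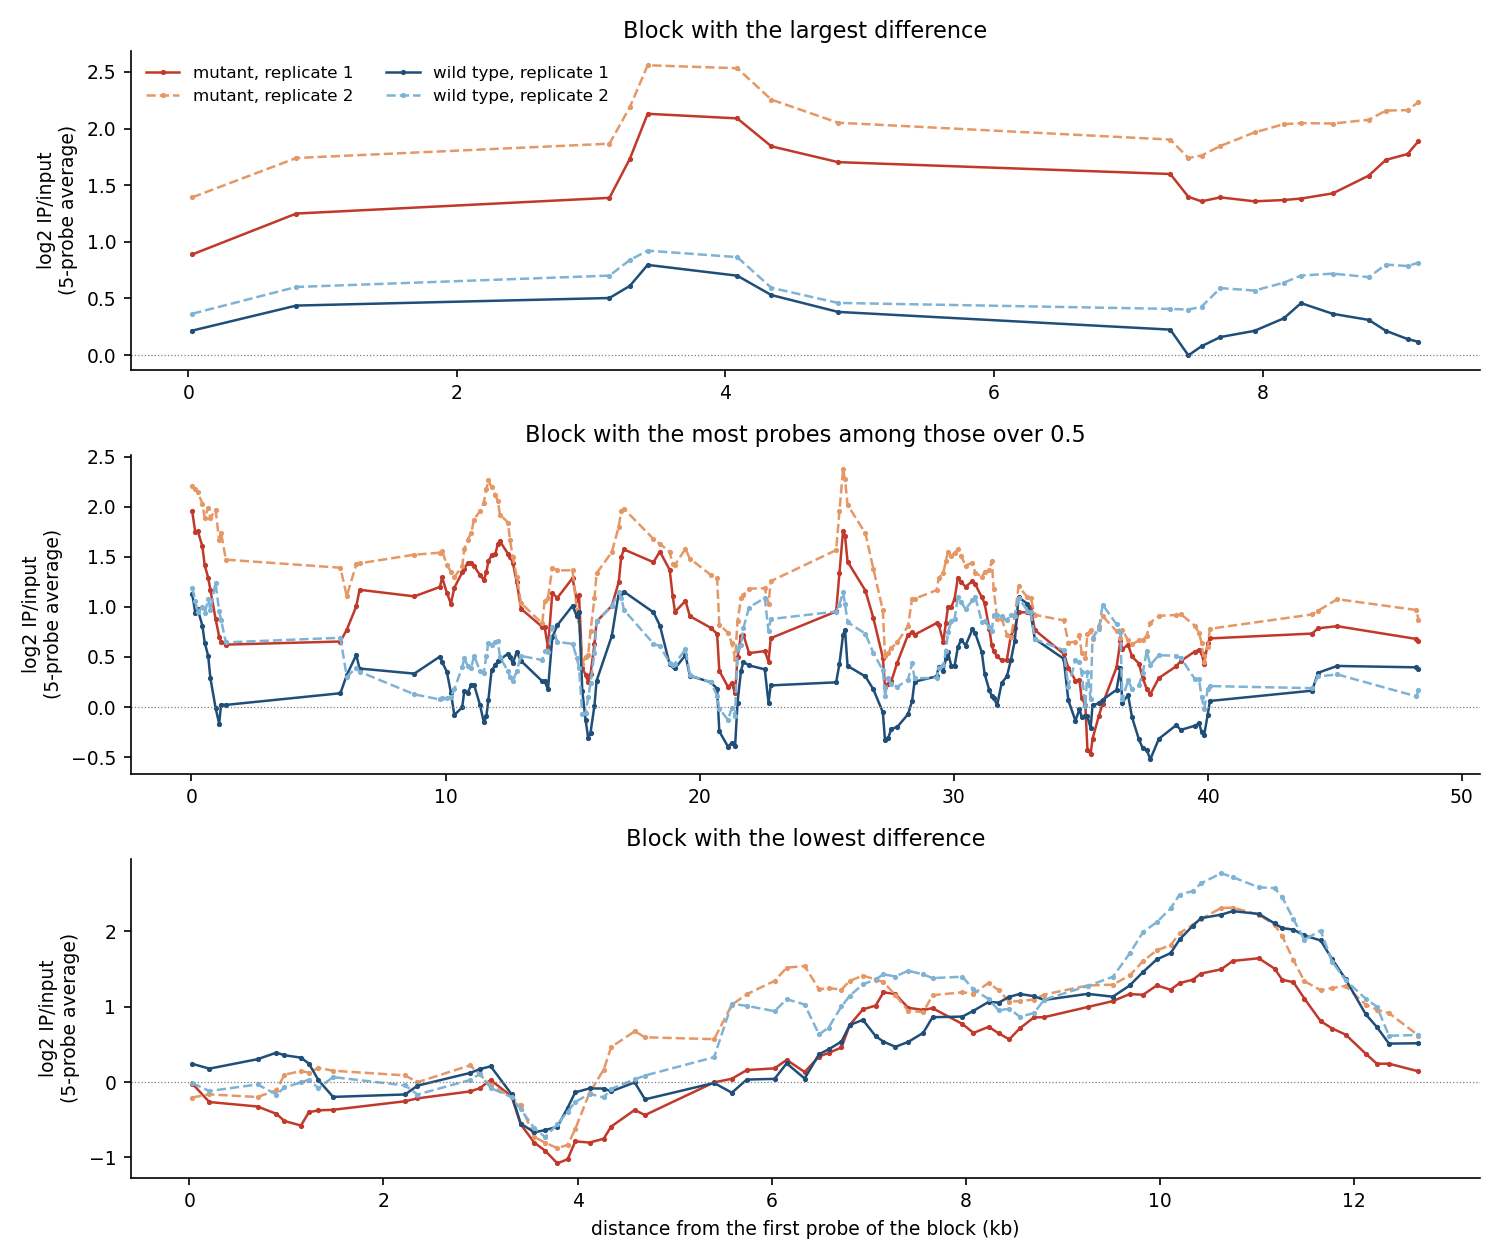
Log2 IP/input relative to the array median, averaged over 5 neighbouring probes, along 3 blocks of 3h probes in all 4 samples, by the distance from the first probe of the block (kb). In the top block both mutant curves run above both wild type curves throughout (means 1.54 and 2.01 against 0.33 and 0.63). In the middle block they do so over much of its length, and the genotypes overlap in places, such as near 22.6 kb and 32.6 kb. In the bottom block each mutant curve runs below the wild type curve of its replicate at the highest point. The blocks were chosen for the plot after their values were seen.

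Windows of 2 kb were tested for a difference between the genotypes with limma over all 57266 windows with at least 3 probes. Adjustment was by Benjamini-Hochberg at 0.05. The SE of a window followed the variance trend over all windows rather than the spread of its own samples. The window from 884001, with an SD of 0.41 in the mutant and 0.48 in wild type, had an SE of 0.249. That from 1900001, with SDs of 0.10 and 0.08, had one of 0.245. On 3h 427 windows qualified, with 2921 probes, while 209 windows with fewer probes, 291 probes in all, were left out. Of the 427 windows 21 were increased in the mutant and 0 were decreased. The share of increased windows was 4.92% on 3h, against 0.353% of all windows, and 0.173% of all windows were decreased. It was not particular to 3h, since 5.16% of the windows on 2h were increased and 0 decreased. At an unadjusted p of 0.05 limma gave 112 windows of 3h higher and 1 lower, beside 2142 higher and 1190 lower of all 57266. With the replicate as a block in the limma fit, 150 windows were increased and 4 decreased on 3h, and the 150 included all 21. Over all windows 5.4% were increased and 3.74% decreased with the block. The increased share was 35.1% on 3h and 49.6% on 2h. The calls rested on all 4 libraries. Every fit with 1 sample left out called fewer windows of 3h. Such a fit leaves 1 sample in a genotype, so only median differences are given. On 3h the median was 0.44 without mutant replicate 1 and 0.12 without mutant replicate 2. It was 0.17 without wild type replicate 1 and 0.40 without wild type replicate 2. Over all windows these medians were 0.10, -0.06, -0.05 and 0.11. After loess normalization within the arrays, and in a fit without a trend of the variance, 0 windows of 3h were called in either direction. Of all windows 0.00524% and 0.00349% were increased there. At an unadjusted p of 0.05 limma gave 38 and 94 windows of 3h higher and 5 and 1 lower. Unadjusted counts over all windows were not taken in these fits. Under both settings 3h lay above the background in its median difference, which was 0.16 and 0.28 against 0.02 in all windows for each.

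The direction was shared far beyond the windows that passed. The mutant was higher in both replicates in 291 of the 427 windows, or 68.1%, and lower in both in 35, or 8.20%. Over all windows these shares were 33.3% and 27.8%. Both mutant samples lay above both wild type samples in 197 windows, 46.1% of those on 3h against 15.9% of all windows. They lay below them in 14, or 3.28% against 11.7%. On 2h the shares were 45.6% above and 0.794% below. The median difference was 0.28 on 3h and 0.02 over all windows. Single windows of 3h reached from -0.51 to 1.43. Between replicates the differences of the 427 windows gave 0.646 for Pearson's r and 0.589 for Spearman's rho, and all windows gave 0.466 and 0.338. These are descriptions across windows of the same 4 samples.

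**Figure D5:**
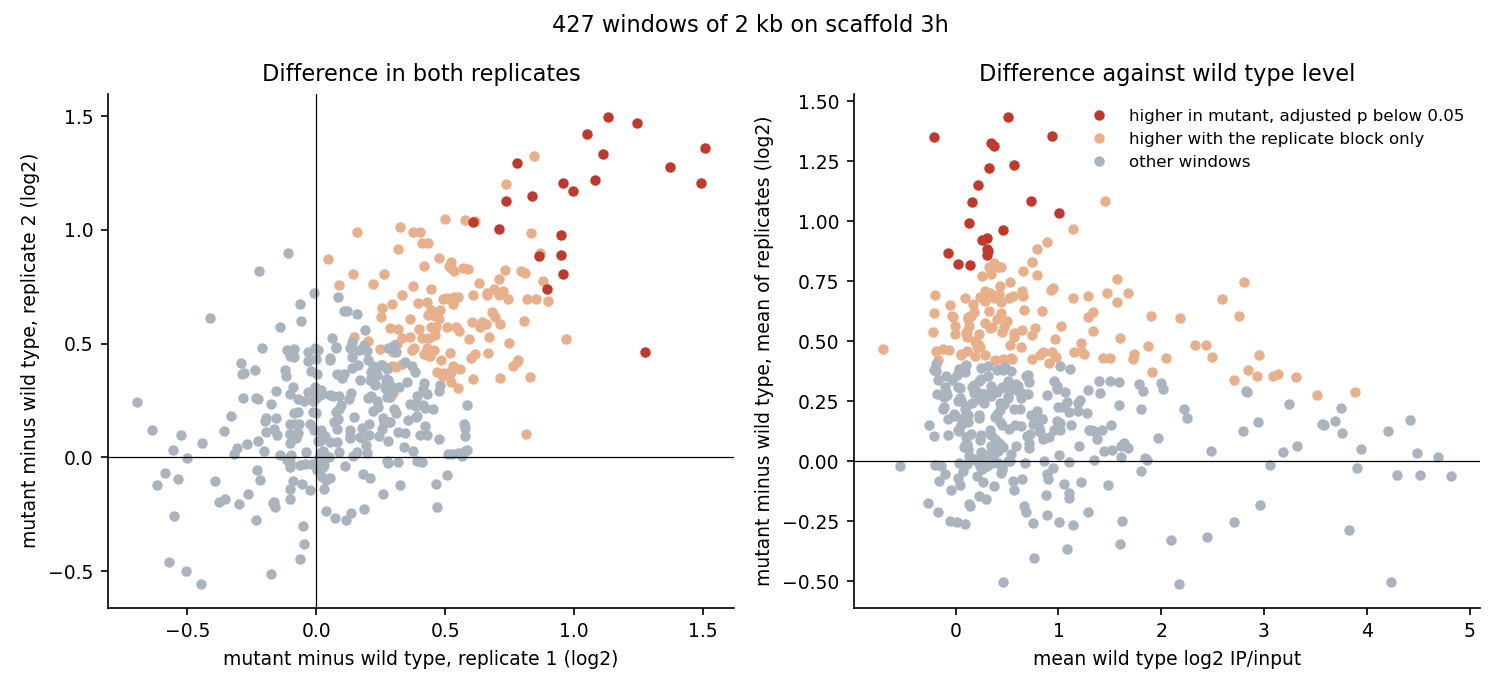
Each point is 1 of 427 windows of 2 kb on scaffold 3h. Left, mutant minus wild type in replicate 1 (horizontal) and replicate 2 (vertical), log2. Right, mean of both differences against the mean wild type log2 IP/input. The 21 windows past the adjusted threshold (dark) all have positive differences in both replicates and wild type levels between -0.21 and 1.01.

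The 10 increased windows with at least 5 probes and the largest differences, from 1.43 down to 0.86, were found at 8 places. The window from 2250001 to 2252000 had 1.72 and 2.16 in the mutant, against 0.21 and 0.80 in wild type (difference 1.43 ± 0.26, SE, limma adjusted p = 4.66e-05). Its neighbour from 2248001 to 2250000 had 1.30 and 1.80 in the mutant, against 0.19 and 0.46 in wild type (1.22 ± 0.24, limma adjusted p = 0.000409). Both lie in the block that differed most, and another window of that block with 4 probes, from 2244001, was increased as well.

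The window from 884001 to 886000, read by 12 probes, had 1.38 and 1.96 in the mutant, against 0.00 and 0.68 in wild type. Its wild type samples were far apart, and both were below the lower mutant sample (difference 1.33 ± 0.25, SE, limma adjusted p = 8.99e-05). That spread is hardly reflected in its SE. The windows from 1502001 to 1504000 and from 1504001 to 1506000 adjoin each other in the block between 1493106 and 1541431. The window from 1504001, with 14 probes, had 1.45 and 1.92 in the mutant, against 0.31 and 0.42 in wild type (1.31 ± 0.25, limma adjusted p = 0.000127). A further window of the same block, from 1518001 to 1520000, had 1.54 and 2.10 in the mutant, against 0.54 and 0.93 in wild type. In the window from 816001 to 818000, 12 probes gave 1.05 and 1.44 in the mutant, against 0.09 and 0.23 in wild type. In each of these windows both mutant samples lay above both wild type samples.

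The remaining 4 named windows, from 1900001, 964001, 1056001 and 1502001, had differences of 0.96, 0.88, 0.86 and 1.15, all without overlap of the genotypes. Input differed little between the genotypes in the 10 windows, by -0.05 to 0.10. Among the other 11 increased windows 10 rested on only 3 or 4 probes, and in 1 of these, from 1068001, the input differed as well, by 0.58. Leaving the windows of fewer than 5 probes out of the fit gave 11 increased windows on 3h.

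All but 1 of the 21 increased windows had a wild type level below 1, with a range from -0.21 to 1.01, while 298 of the 427 windows, or 69.8%, were below that level. The wild type level is part of the difference that was tested, and the limma SE grew with it, with a median of 0.31 in windows at 1 or more and 0.22 in those below, so this range describes the calls only. The 3 windows with the highest wild type level were not called. The window from 466001 to 468000 had 4.34 and 5.18 in the mutant, against 4.48 and 5.17 in wild type. That from 2026001 to 2028000 had 4.39 and 5.04 in the mutant, against 4.46 and 4.94 in wild type, and that from 840001 to 842000 had 3.98 and 4.93 in the mutant, against 4.09 and 4.94 in wild type. In all 3 the genotypes overlapped and the replicates differed more than the genotypes. The limma SE of the difference was 0.53 to 0.56 there, larger than the mean difference of 3h. A rise of that size was thus not detectable in a single window of this level without the replicate block. With the block the SE was 0.065, 0.067 and 0.071, below the mean difference of 3h. The differences of the 3 windows were -0.064, 0.018 and -0.059, and none was called with the block either. Of the 3 lowest wild type windows 2 were higher in the mutant in both replicates. The window from 1114001 to 1116000 had -0.35 and -0.13 in the mutant, against -0.76 and -0.66 in wild type, and that from 2642001 to 2644000 had -0.25 and 0.03 in the mutant, against -0.45 and -0.07 in wild type. The window from 534001 to 536000 had -0.66 and -0.46 in the mutant, against -0.47 and -0.62 in wild type.

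Some of the increased windows adjoined each other. Pairs and runs were described on 3h only, so no share over other sequence stands beside their counts. Whether the counts go beyond what the share of called windows gives was not tested. With the replicate block that share was 35.1% on 3h and 49.6% on 2h, against 5.4% of all windows. Without the block 3 pairs of adjacent windows were called, at 1502001 to 1506000, 1900001 to 1904000 and 2248001 to 2252000, and no run of 3. With the replicate block there were 14 runs of at least 3 adjacent windows, which held 51 windows. The longest covered 6 windows from 1502001 to 1514000, with a mean of 1.13 and 1.47 over 51 probes in the mutant, against 0.37 and 0.45 in wild type. To see how far such stretches reach, the difference of replicate 1 in a window was set beside that of replicate 2 in another window at a fixed distance. Pearson's r over the 3h windows was 0.47 at 2 kb, 0.33 at 4 kb, 0.22 at 10 kb and 0.083 at 20 kb, against 0.26, 0.14, 0.068 and 0.044 over all windows. Likeness of neighbouring windows thus fell off within about 20 kb.

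The 4 windows of 3h decreased with the replicate block lay at 3 places. The window from 498001 to 500000, in the block of lowest difference, had 1.37 and 1.94 in the mutant, against 1.94 and 2.40 in wild type. The window from 692001 to 694000 had -0.15 and 0.08 in the mutant, against 0.29 and 0.63 in wild type. The adjacent windows from 1932001 and 1934001 were strongly enriched in both genotypes, and there the difference was -0.29 and -0.50. None of the 4 passed limma without the block, where their adjusted p was 0.517 to 1.00.

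Peaks of the mt/WT track, the difference of mutant and wild type within a replicate, were called with the procedure of the study's Methods and kept where they were found in both replicates. No error term enters this procedure, and it yields no p-value. On 3h 51 peaks of increased H3K36me3 and 2 of decreased H3K36me3 were found. They held 17.4% of the 3h probes for the increase, against 1.96% of all probes, and 0.685% for the decrease, against 1.65% of all probes. On 2h increased peaks held 29.9% of the probes and decreased peaks 0%. Increased peaks on 3h were 275 to 8308 bp wide, with a median of 1707 bp. Of the 51 peaks 49 had a wild type mean above 0, beside 617 of 680 over all probes and 39 of 39 on 2h. The median level of the 3h peaks was 1.35 in the mutant, against 0.57 in wild type. Of the 21 increased windows 20 touched a peak. Windows and peaks rest on the same differences of the same samples. The smallest difference of an increased window, 0.82, exceeded the peak thresholds of 0.71 and 0.63 in replicates 1 and 2. Where windows and peaks meet is thus a description only.

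The peak with the largest difference, between 2244784 and 2246533, had 2.08 and 2.51 in the mutant, against 0.70 and 0.89 in wild type. The widest, between 1501850 and 1510157, had 1.16 and 1.48 over 42 probes in the mutant, against 0.39 and 0.47 in wild type. These lie in the same blocks as the leading windows. Peaks also marked places of higher wild type level where no window passed the fit without the block. Between 391859 and 393506 the level was 2.22 and 2.94 in the mutant, against 1.59 and 2.05 in wild type, and between 408328 and 408867 it was 3.29 and 3.82 in the mutant, against 2.58 and 3.04 in wild type. The decreased peaks, between 498526 and 500703 and between 692395 and 694005, coincide with windows that were decreased with the replicate block. In the first the level was 1.14 and 1.79 in the mutant, against 1.87 and 2.16 in wild type, and in the other 0.13 and -0.05 in the mutant, against 0.53 and 0.64 in wild type.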

How the data were processed

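Scanner output of 8 Agilent 2-colour arrays (2 designs, 4 samples) was used, of which 4 arrays hold 3h. The authors deposited spot intensities extracted with Feature Extraction 10.5.1.1. For the processed signal the software subtracted background, removed trends over the slide and scaled the dyes. They also deposited log2 ratios, which are the log2 ratio of IP over input after subtracting the background median from each mean signal, plus a constant for each array (all values within 0.001), without values for 18 and 24 of the 3h probes in replicate 2 of mutant and wild type. Limma is named in the submitters' processing notes without a version. Outlier flags came from the deposited files.

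Log2 of processed IP over processed input was centred on the median of each array. Euchromatin stands for the arms on the same arrays without the 1 Mb next to the centromere. Windows of 2 kb with at least 3 probes were fitted with limma 3.58.1 (lmFit, eBayes with trend) under R 4.3.3 for the effect of genotype over both designs, with Benjamini-Hochberg adjustment at 0.05. Named windows were the 10 largest increases that passed in windows of at least 5 probes, all decreases by the same rule (0 passed), and the 3 highest and 3 lowest wild type levels. Adjacent windows in runs of 3 or more, segments of 100 kb and blocks without a gap over 5 kb were described as well. Means per sample were compared by exact permutation. Peaks used an average over 5 probes, 1 SD for candidates and 2 SD for peaks above the mean of positive smoothed values, runs of 3 or more probes without a gap over 1000 bp, and 1 bp of overlap between replicates. Increased peaks also had to lie where the mutant data were mostly positive.

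Replicate numbers pair the samples, since the file headers place both genotypes of a replicate on 1 scan day. Over all windows the replicate difference of the mutant and that of wild type had Pearson's r of 0.653, and on 3h 0.461. The main fit had no block. Alternatives were normexp (offset 50), loess (span 0.3), scaling by the median absolute deviation, no centring, the deposited ratios, filters on the input, other windows and thresholds, the replicate block and leaving out samples. The steps were tested on simulated data. The scaffold, its subdivision and the lists were chosen with earlier results of these data known. Python 3.11.15 with numpy 2.4.6, pandas 2.3.3, scipy 1.17.1 and matplotlib 3.10.9 was used.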

Additional observations from a re-analysis of the deposited data

How the results depend on the processing

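With 2 samples in each genotype the precision of every value is limited by their number, and signals of dim IP probes lie close to background. The mean difference between mutant and wild type on 3h was 0.29. It stayed positive under the 9 alternatives tried, from 0.16 (loess) to 0.51 (normexp). The replicate block is 1 of these 9 and cannot move the value. Centring cancels where euchromatin or 2h of the same arrays is subtracted, so leaving it out changes nothing there. With 1 sample left out the mean difference was 0.11 to 0.46. Relative to euchromatin it was 0.13 to 0.33, and 0.17 to 0.35 with 1 sample left out. The change of 3h minus that of 2h stayed negative, from -0.28 to -0.05, and -0.14 to -0.03 with 1 sample left out. With exchange within replicates (replicate block) these values had an exact permutation p of 0.5 each. That is the lowest p that 2 replicates allow, so this setting could not change a call on these means. The wild type mean of 3h minus euchromatin, 0.099, was -0.062 with normexp, 0.31 with loess and 0.64 as a difference of medians. The input difference of -0.01 was -0.20 with normexp and -0.23 to 0.20 with 1 sample left out (0.198 without mutant replicate 2, 0.199 without wild type replicate 1), which unbalances the scan days.

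The count of 21 increased windows on 3h was 57 with normexp, 0 with loess, 44 after scaling by the median absolute deviation, 50 without centring, 6 with the deposited ratios, 12 with windows of 1 kb, 11 with at least 5 probes, 41 without a minimum of probes, 150 with the replicate block, 0 without a trend of the variance, and 1 to 13 with 1 sample left out. The share of all windows that was increased moved too, from 0.353% to 0.44% with normexp, 0.00524% with loess and 0.831% after scaling. It was 0.761% without centring, 0.176% with the deposited ratios, 0.234% with windows of 1 kb and 0.294% with at least 5 probes. Without a minimum of probes it was 0.52%, with the replicate block 5.4% and without a trend of the variance 0.00349%. Decreased windows on 3h were 0 throughout except for 4 with the replicate block. Of the 21 windows 12 remained called with normexp and 5 with the deposited ratios, and 17 stayed higher in the mutant with loess. Of the 10 named increases, that from 1900001 was -0.12 with loess, where 0 of the 10 passed and those from 2248001 and 1504001 were 0.055 and 0.30, against 1.22 and 1.31 with the processed signals. The 51 increased peaks were 8 with normexp, 18 at a threshold of 3 SD, and 79 to 99 from 1 replicate alone. The 2 decreased peaks were 0 with normexp, 6 with loess, 1 with the deposited ratios, with the filter on the input background, at 3 SD or with overlap over a share of 0.5 of the peak, and 3 to 11 from 1 replicate alone. The cause of these moves was not tested.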
